A study of Mus musculus with 10 samples.

Results

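Domains losing H3K4me3 in *Setd1b* cKO oocytes were defined as runs of at least 3 directly adjacent 5 kb windows on chromosomes 1 to 19, in each of which the highest of the 3 cKO values lay at least 0.5 normalized RPKM below the lowest of the 3 WT values. This rule gave 471 domains with 1714 of the 492344 autosomal windows, or 8.57 Mb. The domains were chosen on the H3K4me3 values themselves, so these values are given below as a description and not as a test. H3K4me3 was profiled by ULI-nChIP-seq, a native chromatin immunoprecipitation for small cell numbers, in fully grown germinal vesicle (GV) oocytes from 21-day-old females of strain C57BL6 (C57BL/6OlaHsd in the study's methods). The cKO oocytes were *Setd1b* floxed/floxed and Gdf9-Cre positive, and the labels give the WT oocytes as floxed/floxed and Gdf9-Cre negative, whereas the study's methods also allow WT females that were heterozygous and carried Cre. *Gdf9*-Cre acts in oocytes from early folliculogenesis onwards, so that H3K4me3 present before recombination could persist in the cKO. Each library came from a pool of about 200 oocytes, and input libraries stood for replicates 1 and 4 of each genotype. The study collected 4 pools of each genotype for H3K4me3 and left out 1 WT and 1 cKO library for poor enrichment. It judged this in part by outliers in a hierarchical clustering. H3K4me3 values are listed in a fixed order, replicates 1, 3 and 4 for cKO and replicates 1, 2 and 4 for WT.

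H3K4me3 is a histone mark best known from CpG-rich promoters. In most cells it forms narrow peaks at transcription starts, whereas growing oocytes also accumulate it in broad domains away from promoters. It is placed by SETD1 and MLL enzymes, which share core subunits, and SETD1B, the product of the targeted gene, is one of these methyltransferases. Its partner CXXC1 carries a domain that binds unmethylated CpG, so the CpG content of a region is a basic property to read beside its H3K4me3.

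The sequences below show the range of CpG content within the domains, with each CpG dinucleotide in capitals. The first set holds promoters from 250 bases before to 30 bases after the RefSeq start (GRCm38.p6), on the strand of the gene. They are those of *Gtsf1l*, at chr2:163089572-163089851 (minus strand) in a domain of 10 windows, of *Gpr3*, at chr4:133212507-133212786 (minus strand), a receptor gene that keeps oocytes in meiotic arrest, and of the hair follicle keratin gene *Krt27*, at chr11:99351089-99351368 (minus strand) in a domain of 8 windows. *Gpr3* was chosen after its values were seen. Entries for *Setd1b* and *Mn1* were missing from the promoter table.
Gtsf1l: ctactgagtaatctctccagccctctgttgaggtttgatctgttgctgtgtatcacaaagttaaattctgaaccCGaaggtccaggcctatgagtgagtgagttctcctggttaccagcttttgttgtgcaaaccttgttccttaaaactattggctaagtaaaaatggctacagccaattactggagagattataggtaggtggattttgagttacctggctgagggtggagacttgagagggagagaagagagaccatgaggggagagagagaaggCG
Gpr3: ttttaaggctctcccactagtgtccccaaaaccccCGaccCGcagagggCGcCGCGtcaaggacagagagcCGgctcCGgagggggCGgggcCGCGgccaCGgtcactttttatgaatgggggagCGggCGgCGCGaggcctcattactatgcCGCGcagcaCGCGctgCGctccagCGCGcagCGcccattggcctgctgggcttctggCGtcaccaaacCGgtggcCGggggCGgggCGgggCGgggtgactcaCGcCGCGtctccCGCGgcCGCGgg
Krt27: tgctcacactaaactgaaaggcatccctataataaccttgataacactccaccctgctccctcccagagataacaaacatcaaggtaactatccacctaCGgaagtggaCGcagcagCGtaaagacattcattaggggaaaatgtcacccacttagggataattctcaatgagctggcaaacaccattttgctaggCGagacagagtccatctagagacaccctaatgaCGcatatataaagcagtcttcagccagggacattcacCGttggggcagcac
These promoters held 2, 36 and 6 CpGs in 280 bases. The second set shows domains without a promoter by the outermost start of each gene. With the start of every transcript counted, the *Prkag2* domain held a start or lay within 500 bp of one. Each domain is shown by the stretch of 200 bases free of masked repeats that lay nearest to its centre (plus strand). The stretches were chr3:111633076-111633275, in the longest intergenic domain, chr10:23670257-23670456, also intergenic, chr12:90307636-90307835, in an intron of *Nrxn3*, and chr5:24889900-24890099, in an intron of *Prkag2*.
chr3 intergenic: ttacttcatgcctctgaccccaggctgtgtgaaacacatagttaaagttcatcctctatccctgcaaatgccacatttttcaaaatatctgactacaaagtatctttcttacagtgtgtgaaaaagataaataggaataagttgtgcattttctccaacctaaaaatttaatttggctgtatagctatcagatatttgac
chr10 intergenic: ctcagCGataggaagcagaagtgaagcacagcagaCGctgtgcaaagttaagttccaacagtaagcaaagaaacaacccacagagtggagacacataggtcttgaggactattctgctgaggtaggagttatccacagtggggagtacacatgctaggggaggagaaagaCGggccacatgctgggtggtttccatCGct
Nrxn3 intron: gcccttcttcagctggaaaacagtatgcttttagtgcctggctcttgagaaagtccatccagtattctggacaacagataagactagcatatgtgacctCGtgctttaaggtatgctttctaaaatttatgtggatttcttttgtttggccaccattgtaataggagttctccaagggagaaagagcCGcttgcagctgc
Prkag2 intron: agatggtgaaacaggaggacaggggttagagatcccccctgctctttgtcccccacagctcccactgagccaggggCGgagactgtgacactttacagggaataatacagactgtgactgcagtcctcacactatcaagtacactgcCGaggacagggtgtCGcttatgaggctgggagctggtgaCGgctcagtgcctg
These stretches held 0, 4, 2 and 4 CpGs.

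The domain at *Setd1b* itself had the highest WT level of all 471. It spanned chr5:123135001-123150000 and covered the *Setd1b* start (123142193, plus strand; gene end 123168629) and the starts of the upstream lincRNAs AI480526 and 4932422M17Rik. The domain mean was 4.02, 4.93 and 4.36 normalized RPKM with the deletion and 8.50, 9.04 and 7.13 in WT (4.44 ± 0.46 against 8.23 ± 0.98, SD, n = 3 each). The gap was widest just downstream of the start. In the window 123145001 to 123150000 the cKO libraries held 2.17, 3.21 and 3.25 and the WT libraries 8.34, 9.69 and 7.37 normalized RPKM. Further into the gene the genotypes overlapped, with 1.56, 3.61 and 1.90 against 1.86, 3.08 and 1.59 in the next window and at most 2.29 in any library in the 3 windows after it. At *Hpd*, beyond the gene end, the cKO libraries held 6.51 to 6.77 and the WT libraries 6.20 to 7.94 in the first window.

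Limma called no window of *Setd1b* for input, and none of all 544879 windows. In the window just downstream of the start the input was 1.94 and 2.10 RPM (reads scaled to library size) per window in cKO replicates 1 and 4 and 2.71 and 1.51 RPM in WT replicates 1 and 4. The log2 differences of input, cKO minus WT, were −0.10, 0.52 and −0.01 in the 3 windows of the domain, with standard errors of 0.17, 0.36 and 0.29 (limma, adjusted p = 0.995, 0.866 and 1). In the 4 further windows of the gene the log2 differences were −0.09, −0.03, 0.22 and 0.20, with standard errors of 0.10, 0.05, 0.21 and 0.13 (adjusted p = 0.941, 0.998, 0.923 and 0.857). The position of the removed part within the gene was not used here, so these values do not check the deletion.

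**Figure D1:**
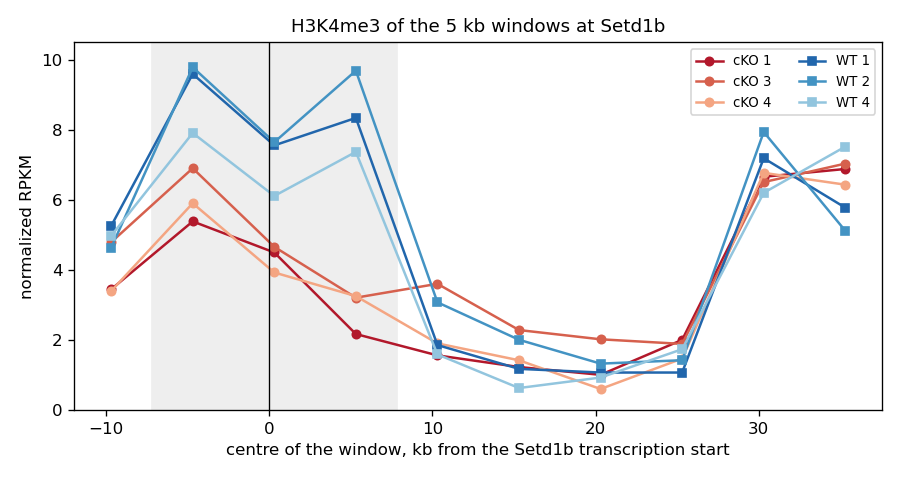
Normalized RPKM of 10 windows of 5 kb at *Setd1b* in each of the 3 cKO (circles) and 3 WT (squares) libraries, by the distance of the window centre from the *Setd1b* start in kb. The shaded domain is the stretch where every cKO value lies below every WT value by the margin, and the lines cross or lie close together in the gene body.

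Across the 471 domains, the cKO libraries were near the level of the autosomal genome and the WT libraries well above it. In cKO the median over the domains was 1.82, 1.54 and 1.69 normalized RPKM, beside medians over all autosomal windows of 1.45, 1.76 and 1.66. In WT it was 3.46, 3.34 and 3.75, beside 1.49, 1.52 and 1.59 over all autosomal windows. The lowest domain in a WT library was at 1.81 and the highest in a cKO library at 5.18, so a WT level in one domain can lie below a cKO level in another. The difference between the means, cKO minus WT, had a median of −1.79 normalized RPKM and ranged from −3.96 to −1.07. As a yardstick, the 52262 autosomal windows with a WT mean between the quartiles of the domains had a median difference of −0.22.

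On the scale of reads, the median domain held 0.292, 0.325 and 0.342 RPM per kb in the cKO libraries and 0.774, 0.639 and 0.702 in the WT libraries. The ratio of the WT mean to the cKO mean had a median of 2.14 and ranged from 1.53 to 4.03. The cKO and WT libraries did not overlap on this scale in 470 of 471 domains, where 7.53% of all autosomal windows had every cKO library below every WT library. On normalized RPKM that share was 9.42%, and 2.70% of autosomal windows passed the margin that defines the domains, so nothing is read from the separation itself. Depth was 10856015 to 32775874 reads per H3K4me3 library, and the median domain held between 66 and 393 reads per library, with as few as 5 reads in cKO replicate 1. An interval from these reads would cover counting error only.

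**Figure D2:**
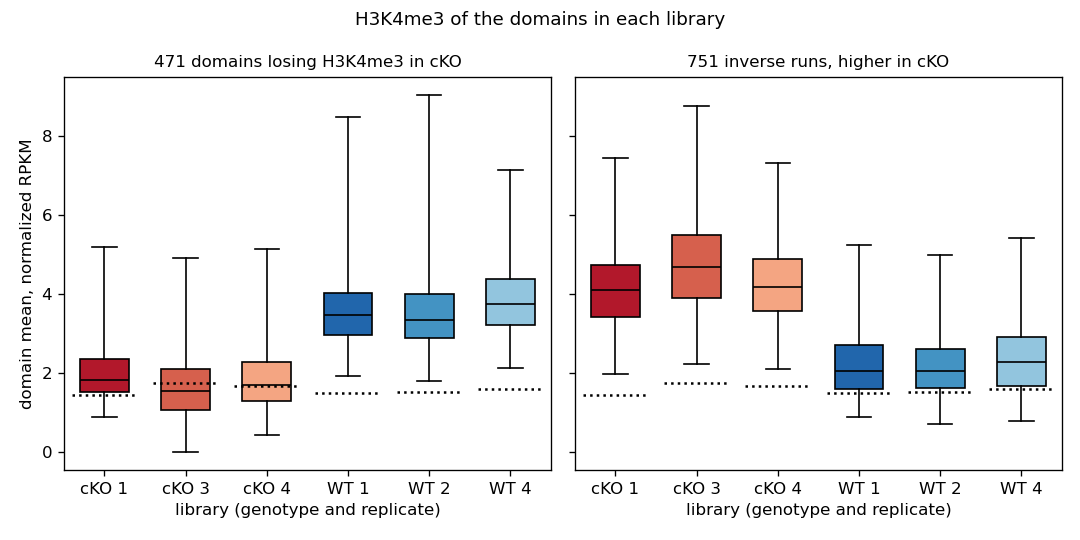
Domain means in normalized RPKM for each library, for the 471 domains losing H3K4me3 (left) and the 751 inverse runs (right). Boxes span the quartiles with the median as a line, whiskers reach the lowest and highest domain, and dotted lines mark each library's median over all autosomal windows. In the left panel the cKO medians lie at 1.54 to 1.82 and the WT medians at 3.34 to 3.75.

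The remaining level in cKO oocytes differed between domains. The cKO mean was at or below the autosomal cKO median of 1.63 in 223 of 471 domains (47.3%), and above the autosomal cKO 75th percentile of 2.86 in 48 (10.2%). Intergenic domains reached the autosomal median in 144 of 264 cases (54.5%), domains within gene bodies in 30 of 86 (34.9%) and domains with a promoter in 49 of 121 (40.5%). Domains with more WT H3K4me3 had the larger loss (Spearman's rho of WT mean with the difference −0.58 across 471 domains, as a description of measures that share the WT values and the libraries).

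Limma on the deposited values called 466 of the 1714 domain windows lower in cKO (27.2%, adjusted p under 0.05), in 270 domains, where 0.454% of all 544879 windows were called lower. The rule used the same contrast, so this count is no evidence about the domains. Leaving out a cKO library made the count 795, 103 or 0 (replicate 1, 3 or 4), and leaving out a WT library made it 1, 0 or 0 (replicate 1, 2 or 4). With an intensity trend the count was 1142 (2.01% of all windows called lower), and edgeR on whole reads gave 836 (1.22% of 503726 windows).

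Leaving out 1 library, defining the domains anew from the other 5 and then reading the left-out library gave a description in which only the left-out library was new. The libraries of the other genotype had helped to choose those domains, so the shares below are in part set by the choice. Without WT replicate 4, the rule gave 586 domains, and WT replicate 4 lay above all 3 cKO libraries in 99.8% of them, beside 25.9% of all autosomal windows. WT replicate 1 lay above the cKO libraries in 99.1% of the 810 domains found without it (28.7% of all windows), and WT replicate 2 in 95.4% of 1570 (20.5%). cKO replicates 3 and 4 lay below every WT library in 97.6% of 832 and 98.5% of 866 domains (41.3% and 39.8% of all windows). cKO replicate 1 stood apart, below every WT library in 62.3% of 2504 domains (21.5%). The first share of each pair is over domains and the second over single windows, and no test was made between them.

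cKO replicate 1 was also the highest cKO library in 290 of the 471 domains, against 56 for replicate 3 and 125 for replicate 4, and the lowest WT library was replicate 2 in 239, replicate 1 in 180 and replicate 4 in 52. In the normalization, a window without reads was given 0.785 normalized RPKM in cKO replicate 1 and 0.810 in WT replicate 1, but −1.02 in cKO replicate 3, −0.70 in cKO replicate 4, −0.04 in WT replicate 2 and 0.30 in WT replicate 4. These last 4 values are higher in WT than in cKO, the direction of a loss, by more than the margin of 0.5. The rule takes the highest cKO value, which is never below the 0.785 of cKO replicate 1, so a window without reads in any library does not pass. RPM does not carry the value of a window without reads. The same rule on RPM, with a ratio in place of the margin, gave 462 domains that held part of 297 of the 471. RPM in turn carries differences in enrichment between libraries. The 99th percentile of reads per window was 13.5, 3.47 and 3.88 times the 40th in the cKO libraries and 14.25, 5.38 and 6.97 times in the WT libraries, so that it was higher in WT replicates 2 and 4 than in cKO replicates 3 and 4. On RPM the replicates numbered 1 had the widest gap between their medians, 0.292 against 0.774 RPM per kb. The part of either in the choice of single domains was not tested.

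In WT oocytes H3K4me3 fell off on both sides of the domains. The median WT level fell from 3.34 to 3.75 inside the domains to 2.10 to 2.70 in the adjacent windows and 1.62 to 2.04 in the windows 8 steps away. In the cKO libraries the medians were 1.54 to 1.82 inside, 1.45 to 1.66 beside and 1.34 to 1.40 at 8 steps. The rule fixes the step at the edges, since the adjacent windows are those that failed the margin. In 188 domains (39.9%), the run of windows above the autosomal WT 75th percentile was longer than the domain. Over all 471 domains this run had a median of 3 windows, from 0 to 29.

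**Figure D3:**
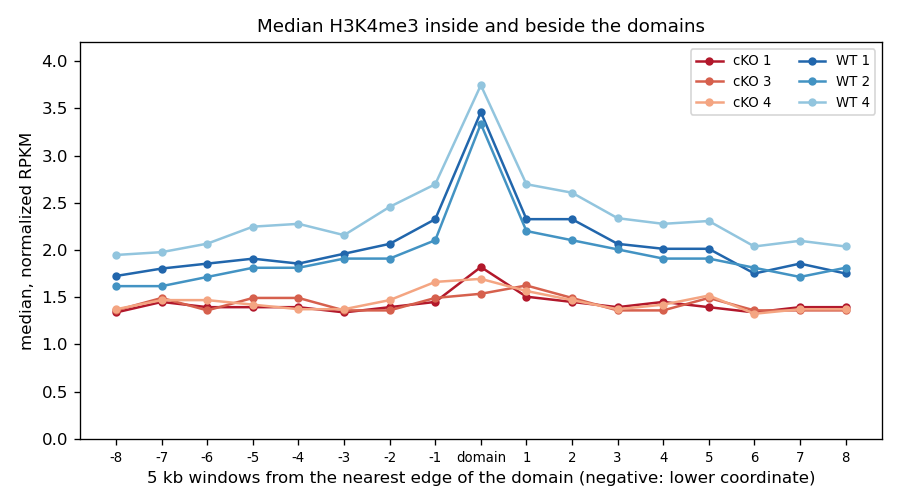
Median normalized RPKM over the 471 domains (centre) and in the 8 windows of 5 kb on either side, by library. The 3 WT lines peak at 3.34 to 3.75 over the domains, and the 3 cKO lines stay between 1.33 and 1.82.

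Most domains were short. There were 304 with 3 windows, 93 with 4, 43 with 5, and the rest had 6 to 12. The inverse runs, in which the lowest cKO value lay at least 0.5 above the highest WT value, numbered 751 with 2829 windows (14.1 Mb), of which 440 had 3 windows. Which direction had more runs depended on the libraries. Without cKO replicate 1 there were 2504 loss domains and 2117 inverse runs, and without WT replicate 2 there were 1570 and 1122. Without any other library the inverse runs were more. Single windows past the margin were about as many in both directions, 13303 for loss and 14165 for gain (2.88% of autosomal windows), of which 1714 and 2829 lay in runs of 3 or more. Loss domains had a median distance of 935 kb to the next loss domain, and 72 lay within 50 kb of one. Within 50 kb of an inverse run lay 1 loss domain, although with all libraries the inverse runs were the more numerous.

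The longest domains were at very different places. The longest, with 12 windows at chr6:68740001-68800000, covered the immunoglobulin kappa variable segments *Igkv4-92* and *Igkv4-91*. Its mean was 1.66, 0.95 and 1.24 normalized RPKM against 2.98, 3.26 and 3.44 in WT, and its input was 1.78 and 2.03 RPM per window in cKO and 1.81 and 1.89 in WT. The domain of 10 windows at chr2:163085001-163135000 held *Gtsf1l*, related to the germline piRNA factor *Gtsf1*, and the lincRNA Gm11454. Here the cKO libraries held 1.91, 2.34 and 2.30 and the WT libraries 4.43, 4.42 and 4.39 normalized RPKM, with almost no spread in WT (SD 0.02). The cKO level was not even within them: the last window held 3.39, 3.21 and 2.77 in the cKO libraries in the domain on chromosome 6, and 3.61, 3.87 and 3.35 in the domain on chromosome 2.

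The longest domain without any gene had 9 windows at chr3:111610001-111655000, and the nearest protein-coding start was *Prmt6* at 1359 kb. It held 1.64, 0.98 and 1.15 in the cKO and 3.20, 2.98 and 3.43 normalized RPKM in the WT libraries. Of 5 domains of 8 windows, the 2 with the largest differences lay at *Iqcj* (chr3:67885001-67925000; 1.94, 1.66 and 1.92 against 3.90, 3.79 and 4.31) and over the keratin genes *Krt26*, *Krt27* and *Krt28* of the hair follicle sheath (chr11:99325001-99365000; 2.58, 2.76 and 2.99 against 4.85, 4.82 and 4.95). The genotypes did not overlap in any of them, as the rule requires.

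After *Setd1b*, the highest WT levels were at the lincRNA gene 2610035D17Rik (chr11:113190001-113205000, 408 kb from *Sox9*) and at an intergenic domain 110 kb from *Sh3bp4* (chr1:89180001-89195000). At 2610035D17Rik the cKO libraries held 2.82, 3.30 and 3.75 and the WT libraries 7.82, 7.46 and 6.46 normalized RPKM, the largest difference of all domains (−3.96). At the intergenic domain they held 4.24, 3.87 and 4.67 against 7.05, 7.36 and 6.47, so that this domain kept more H3K4me3 in cKO oocytes than most domains had in WT.

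Among the other domains with the largest differences, 2 held a promoter. At *Mn1*, which encodes a transcriptional coregulator, the domain (chr5:111410001-111425000) had the highest CpG content of all, 37.2 CpG per kb, and held 2.69, 2.11 and 3.45 in the cKO and 6.46, 5.54 and 5.88 normalized RPKM in the WT libraries. At *Fam220a*, named 2810453I06Rik in the deposited table (chr5:143545001-143560000), it held 4.17, 3.21 and 3.27 against 6.30, 6.61 and 6.18. The domain in *Prkag2*, the gene of an AMPK regulatory subunit (chr5:24880001-24900000), held 2.43, 3.18 and 2.69 against 6.64, 5.95 and 6.83 normalized RPKM. It lay 37.4 kb from the nearest outermost start of a protein-coding gene. With the start of every transcript counted, it held a start or lay within 500 bp of one.

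Gene bodies without a start in the domain included *Cpne4*, a gene of the calcium-binding copines, and the synaptic adhesion gene *Nrxn3*. The *Cpne4* domain (chr9:104875001-104895000) held 2.30, 3.04 and 2.19 in the cKO and 5.22, 5.34 and 5.37 normalized RPKM in the WT libraries. The *Nrxn3* domains with the largest differences lay at chr12:90155001-90170000, with 1.84, 2.37 and 2.40 against 4.63, 4.57 and 5.31, and at chr12:90300001-90315000, with 1.41, 1.80 and 1.50 against 4.21, 3.95 and 4.75. The intergenic domain at chr10:23660001-23680000, 107 kb from *Rps12*, held 2.57, 1.59 and 2.15 against 4.995, 4.83 and 5.62.

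The largest ratios of reads belonged to domains that were low in cKO, which is in part built in, since the cKO level is the divisor. The ratios rest on few reads. In cKO replicate 1 there were 12 reads in the *Dpp10* domain, 53 in the *Vmn1r27* domain and 5 in the intergenic domain on chromosome 9. In *Dpp10*, which encodes a potassium channel auxiliary protein (chr1:123895001-123910000), the WT level was 4.03 times the cKO level in RPM, with 1.01, 0.92 and 0.51 in the cKO and 3.36, 2.92 and 3.44 normalized RPKM in the WT libraries. At the vomeronasal receptor gene *Vmn1r27* (chr6:58195001-58225000) the libraries held 1.28, 1.05 and 0.83 against 3.30, 3.35 and 4.15, and at an intergenic domain (chr9:36180001-36195000) 0.88, 0.13 and 0.60 against 2.17, 2.04 and 2.53. At the edge of the rule, the 3 domains just inside had a smallest margin of 0.50, with WT means of 2.57, 3.46 and 2.56, one of them in *Armc3*. The 3 runs just outside had margins of 0.498, 0.497 and 0.497 and WT means of 3.88, 3.12 and 3.76, so the margin does not separate stronger from weaker losses there.

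**Figure D4:**
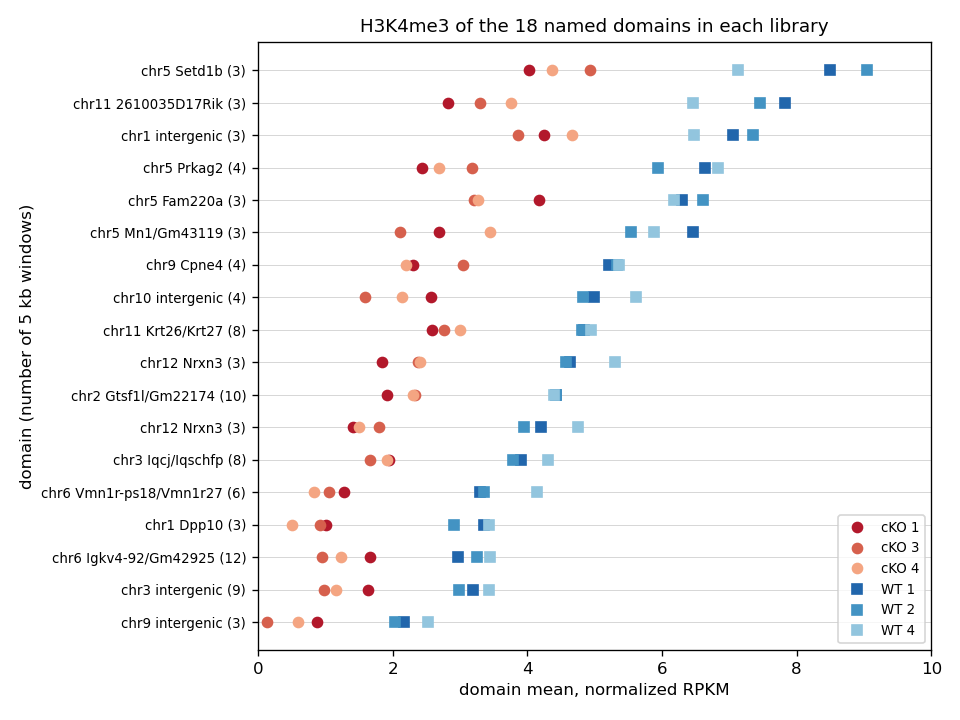
Domain means in normalized RPKM of the 18 domains named by their length, difference, WT level or ratio, or for *Setd1b*, in each cKO (circles) and WT (squares) library, ordered by WT mean. Every circle lies left of every square of its row, and the row of *Setd1b* reaches furthest right, to 9.04.

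The input libraries, which the rule did not use, had similar medians over the domains in both genotypes. The median domain had 2.02 and 2.06 RPM per window in cKO replicates 1 and 4 and 2.05 and 2.06 RPM in WT replicates 1 and 4. Per domain, log2 of the cKO over the WT input had a median of −0.003 and ranged from −0.42 to 0.52, and 241 of 471 domains had the lower input in cKO. For H3K4me3 in RPM the same log2 ratio had a median of −1.10 and ranged from −2.01 to −0.61. Limma on log2(RPM + 0.5) called 0 of the 1714 domain windows for input, and 0 of all 544879 windows. At an unadjusted p under 0.05 there were 140 domain windows (8.17%) beside 7.04% of all windows, and with edgeR on reads 0 domain windows (4 of 504743 windows) were called and 84 (4.90%) had such a p beside 4.54%. With 2 input libraries a genotype, this test can miss large differences as well as small ones. It called no window at chr6:70220001-70245000, where the mean input was 0.314 and 0.708 RPM per window in cKO and 1.74 and 1.61 in WT. The count of 0 is therefore no sign that the input was equal.

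CpG content, which the rule did not use either, was low in most domains. The median was 5.47 CpG per kb, beside 7.2 in all autosomal windows and 12.1 in the inverse runs. On a log2 scale relative to the genome this was −0.59, beside −0.18 and 0.56. The content lay below the autosomal median in 336 of 471 loss domains (71.3%) and in 49 of 751 inverse runs (6.52%). GC content had a median of 39.1% in the loss domains, 41.4% in autosomal windows and 46.7% in the inverse runs, and the repeat-masked share was 33.9%, 27.4% and 19.9%. The medians come from runs in the domains and from single windows in the genome, and no test was made between them.

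CpG content went with the level of H3K4me3 in both genotypes. Across the 471 domains, Spearman's rho of CpG content was 0.62 with the WT mean, 0.63 with the cKO mean and −0.24 with the difference. In the 118 domains with the lowest CpG content (median 3.82 CpG per kb) the median WT and cKO means were 3.06 and 1.35 normalized RPKM, and 84 of them were intergenic. In the 118 domains with the highest (median 10.7 CpG per kb) they were 4.39 and 2.58, and 48 of them held a promoter. The median differences were −1.73 and −1.89 normalized RPKM, values that the margin of the rule bounds.

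**Figure D5:**
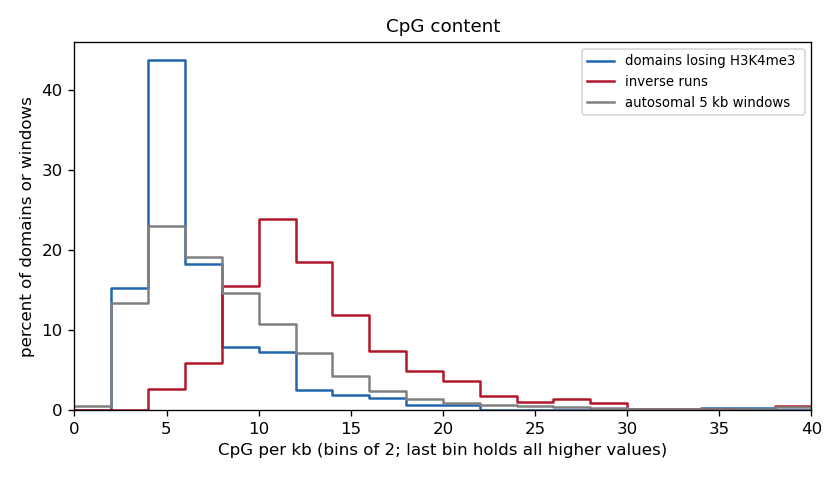
Percent of loss domains (471), inverse runs (751) and autosomal 5 kb windows in bins of 2 CpG per kb. The loss domains are most frequent at 4 to 6 CpG per kb (43.7%), and the inverse runs at 10 to 12 (23.8%).

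By annotation, 264 domains (56.1%) were intergenic, 86 (18.3%) lay within gene bodies without a promoter and 121 (25.7%) held a promoter (TSS ± 500 bp). Of all autosomal runs with the same numbers of windows, 28.2% held a promoter and 62.8% overlapped a gene, where 43.7% of the loss domains did so. The share with a promoter was thus 25.7% beside 28.2%, and with the start of every transcript counted it was 28.2% beside 35.7%. At a margin of 1 the share was 37.5%, and without cKO replicate 1 or 4 it was 30.0% or 29.1%. These lie above 28.2%, a share worked out for the sizes of the 471 domains. Without any other library the share was 22.5% to 27.6%. Inverse runs held a promoter in 38.9% and overlapped a gene in 85.2%, beside 28.8% and 63.1% of runs of their sizes. The nearest protein-coding start was at a median of 127 kb from the loss domains and 26.9 kb from the inverse runs.

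The deposited table names a gene (its Feature column) in 152 of 471 domains, and in 129 of these the same symbol overlapped the domain in GENCODE M21. The column was empty in 74.9% of the domain windows, beside 56.5% of all autosomal windows and 34.6% of the windows of the inverse runs. The domains overlapped 260 annotated genes, and 15 genes were overlapped by at least 2 domains. These were chosen after their values were seen. *Nrxn3* had 6 domains and *Camk2d*, the gene of a calcium-dependent kinase, had 5, and 4 lay in *Iqcj*. *Cpne4*, *Nkain2* and *Ppargc1a*, the gene of a coactivator of mitochondrial genes, had 3 each. Over the 5 domains of *Camk2d*, between 126600001 and 126810000 on chromosome 3, the library means ranged from 0.91 to 2.02 in cKO and from 2.47 to 4.37 normalized RPKM in WT. Neighbouring domains within 1 gene are not independent of each other.

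The promoters in the domains belonged to 166 gene entries, of which 62 were protein-coding (0.298% of 20807 autosomal entries, with *Fam220a* under 2 entries). A further 20 were lincRNA genes, 22 processed pseudogenes and 14 snoRNA genes. For the types other than protein-coding no share over all genes was worked out, so nothing is read from their counts. Several of the snoRNA genes lie together in the domain of *Slc3a2*, and the snoRNA gene Gm23128 stands under 2 entries. Receptor genes of smell and pheromone sensing made up 14 of the 62, with 7 *Olfr*, 5 *Vmn1r* and 2 *Vmn2r* genes. The *Vmn1r* family was 8.06% of the protein-coding genes in domains and 1.00% of all, *Vmn2r* 3.23% and 0.582%, and *Olfr* 11.3% and 5.42%. Members of these families lie side by side and share sequence, and the authors removed mappings of low quality, so reads that match several copies may be missing, and 5 *Vmn1r* promoters on chromosome 6 are not 5 independent cases. The domains of the receptor genes had a median of 4.67 CpG per kb, a WT median of 3.41 and a cKO median of 1.43 normalized RPKM.

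The other 48 protein-coding promoters lay in domains with a median of 11.7 CpG per kb, a WT median of 4.49 and a cKO median of 2.55 normalized RPKM. The genes named here were chosen after their values were seen. The meiotic arrest receptor gene *Gpr3*, which shares its domain with *Cd164l2*, had a domain mean of 2.36, 3.43 and 3.22 in cKO and 4.94, 5.41 and 4.65 in WT. *Tiparp*, which encodes a mono-ADP-ribosyltransferase, held 4.26, 3.34 and 4.01 against 6.51, 6.09 and 5.83. *Slc3a2*, the shared heavy chain of several amino acid transporters, held 5.18, 4.93 and 4.94 against 6.70, 7.001 and 6.51 normalized RPKM. Each of these domains kept a cKO mean above the autosomal median.

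*Actg1*, the gene of cytoplasmic gamma-actin, held 3.85, 3.71 and 4.53 against 5.93, 6.21 and 6.06. *Pum2*, which encodes a translational repressor, held 3.82, 3.17 and 3.86 against 5.64, 5.54 and 5.13. Lower levels were found at *Icam2*, an adhesion molecule of blood vessels and leukocytes, with 1.40, 2.11 and 2.77 against 4.45, 4.60 and 4.67, and at *Rpe65*, an enzyme of the visual cycle, with 1.34, 0.96 and 1.13 against 2.48, 2.17 and 2.77 normalized RPKM.

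Of the gene lists, a promoter in a loss domain was found for *Setd1b*, 1 of 14 genes for H3K4 methyltransferases and COMPASS subunits, beside 0.298% of all autosomal protein-coding genes. It was found for 0 of 11 oocyte transcription factor genes, 0 of 7 autosomal genes for zona pellucida and secreted factors, 0 of 14 maternal effect genes and 0 of 9 DNA methylation genes. A count of 0 does not mean that H3K4me3 was alike at these starts, since a domain needs 3 adjacent windows. In the single window at the start, every cKO library lay below every WT library for 4 of 7 autosomal zona pellucida and secreted factor genes, 5 of 14 maternal effect genes, 1 of 11 oocyte transcription factor genes, 2 of 14 genes for H3K4 methyltransferases and COMPASS subunits and 2 of 9 DNA methylation genes (9.42% of autosomal windows). Every cKO library lay above every WT library for 1, 0, 0, 3 and 2 genes of these lists in the same order (10.8% of autosomal windows). The egg coat gene *Zp2* held 4.33, 3.87 and 4.17 against 8.34, 6.68 and 5.31, and *Nlrp2*, a maternal effect gene, held 3.00, 3.61 and 4.03 against 6.04, 6.87 and 5.37 normalized RPKM. *Padi6*, of the oocyte cytoplasmic lattices, held 5.50, 6.11 and 3.88 against 7.98, 7.94 and 6.95, and the oocyte growth factor gene *Bmp15*, on chromosome X and so outside the rule, held 5.67, 5.06 and 5.23 against 9.18, 7.46 and 6.74. The gene above in the zona pellucida and secreted factor list was *Gdf9*, an oocyte growth factor gene, with 9.99, 12.58 and 9.52 against 7.30, 7.94 and 7.13. The Cre that the cKO carries is driven by the *Gdf9* promoter, and reads from it and from the gene cannot be told apart. These 5 genes were chosen after their values were seen.

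H3K4me3 was also read at the starts of cell type markers, with no test. The summed level of the 10 oocyte markers was 53.0 to 55.7 normalized RPKM in the cKO and 61.1 to 67.7 in the WT libraries. Every cKO library lay below every WT library for 7 genes, 6 of them among the 9 autosomal markers, and above for 1, *Gdf9* (9.42% of autosomal windows were below and 10.8% above). Without *Gdf9* the sums were 41.8 to 45.7 and 54.0 to 60.4. The summed level of the 10 granulosa cell markers was 39.9 to 41.3 in cKO and 30.4 to 34.3 in WT, with every cKO library below every WT library for 1 gene, *Nr5a1*, and above for 5. The median over these 10 starts overlapped between the genotypes, at 3.78, 4.13 and 4.75 in cKO and 3.82, 3.56 and 3.58 in WT. *Foxl2*, a granulosa cell transcription factor, held 6.39, 8.36 and 6.44 against 4.52, 3.86 and 4.26, and the inhibin gene *Inha* held 5.72, 4.40 and 6.44 against 3.27, 3.76 and 3.27. *Nr5a1*, a nuclear receptor gene of steroid-producing cells, held 3.11, 3.34 and 1.90 against 4.94, 3.37 and 3.90. H3K4me3 in oocytes is not limited to expressed genes, so these levels do not measure other cells, and their part in the domains was not tested.

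RefSeq promoters (250 bases before to 50 after the start) with a start inside a loss domain numbered 85, from 76 genes. Their median CpG count was 5, beside 7 in all 31396 autosomal promoters. The letters TATAAA, searched on both strands, were present in 11.8% of them and in 13.6% of all promoters, CCAAT in 42.4% and 37.3%, GGGCGG in 34.1% and 36.0%, and CACGTG in 7.06% and 7.14%.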

How the data were processed

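The members and gene lists were chosen with earlier results of these data known. Per the labels and methods, the authors trimmed reads with Trim Galore 0.4.2, mapped them with Bowtie2 2.2.9 to GRCm38, removed mappings of low mapping quality and counted reads over 5 kb windows with SeqMonk. For H3K4me3 the authors deposited a score, enrichment-normalized RPKM with the 40th and 99th percentiles made equal. For input they deposited a signal, reads per window scaled to library size (RPM). Both were whole numbers of steps within 0.001 of a step, which gave the reads (100% of values in each library). Input depth was 20756128 to 26566505 reads. All value columns were mapped to samples. Windows were tested with limma 3.58.1 (R 4.3.3; two-sided moderated test, no intensity trend, p-values adjusted by Benjamini-Hochberg over 544879 windows, threshold 0.05) on deposited values for H3K4me3 and log2(RPM + 0.5) for input. Tests were checked on simulated data. The alternative was edgeR 4.0.16 on the recovered reads. Promoters came from GENCODE M21 and sequence from GRCm38.p6, whose 21 chromosome lengths equalled those of the table. CpG content is the log2 ratio of a domain's CpG frequency to the genome's (0.5 added to each CpG count). Domains were named for the most windows (5), the largest difference (10), the highest WT mean (3), the largest ratio of reads (3) and the start of a listed gene, with 3 on either side of the margin. Pools are separate samples per the labels, and p-values measure the spread between them. No permuted libraries were used.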

Additional observations from a re-analysis of the deposited data

How the results depend on the processing

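From 471, the number of loss domains moved to 1212 at a margin of 0.25, 64 at a margin of 1, 1873 with runs of at least 2 windows and 167 with at least 4, and to between 586 and 2504 without 1 library. It stayed within 1.5 times after quantile normalization (556, holding part of 405 of the 471), on log2(value + 1) (333, 292 of the 471), on RPM of whole reads (462, 297 of the 471) and with chromosome X added (612). The median CpG content, −0.59 on the log2 scale, was −0.45 at a margin of 1 and between −0.62 and −0.46 without 1 library. The share with a promoter, 25.7%, was 37.5% at a margin of 1, 11.7% for protein-coding genes, and between 22.5% and 30.0% without 1 library. The 466 H3K4me3 calls of limma in domain windows became 0 on log2(value + 1), 0 on log2(value + 0.1), 0 after quantile normalization, 1142 with an intensity trend, 836 with edgeR, and between 0 and 795 without 1 library. The cause was not tested. Input stayed at 0 calls in domain windows in all 9 alternatives, while over all windows 4 were called with a mean of at least 0.5 RPM and 4 with edgeR.

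Replicate numbers 1 and 4 were shared by the genotypes. Deviations of same-numbered libraries correlated at 0.25 and 0.01, and those of the other pairs at −0.19 to 0.11. The 0.25 belongs to the replicates numbered 1, which also had similar values for a window without reads (0.785 and 0.810). The main test did not pair the libraries, and a batch shared by equal numbers was not tested. With the replicate block, limma called 1223 H3K4me3 domain windows (3.63% of all windows were called lower) and 0 input windows. For H3K4me3 this fit compares the genotypes only within replicates 1 and 4, since cKO replicate 3 and WT replicate 2 have no partner. Shallow libraries limit single windows, and 2 input libraries a genotype limit the input test.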

Other observations

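Chromosome X, which the rule leaves out, held 141 runs of loss with 521 windows and 3 inverse runs with 9 windows among its 34192 windows. This was 4.12 runs of loss per 1000 windows on X and 0.957 on the autosomes, and 0.0877 and 1.53 for the inverse runs. In the runs of loss on X, the median was 1.63, 1.18 and 1.35 normalized RPKM in cKO and 3.06, 3.11 and 3.47 in WT. Over all X windows they were 1.17, 0.96 and 0.84 in cKO and 1.49, 1.42 and 1.53 in WT. The X input medians were 1.85 and 1.91 RPM per window in cKO and 1.87 and 1.97 in WT, with overlapping genotypes. CpG content had a median of 4.8 per kb in the runs of loss and 4.8 in all X windows.

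The longest autosomal run of windows with every cKO input below 0.75 of every WT input had 5 windows, at chr6:70220001-70245000 in the immunoglobulin kappa region. The mean input was 0.314 and 0.708 RPM per window in cKO replicates 1 and 4 and 1.74 and 1.61 in WT replicates 1 and 4. It was looked for after the values were seen, holds 0 windows of loss domains, and lies 1420 kb from the domain of 12 windows.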
